A study of Mus musculus with 12 samples.

Results

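The genes described here are the chemokines, a set of cytokines and a set of genes that respond to or regulate NF-kB, measured by bulk RNA sequencing in mouse epiphyseal chondrocytes that lack the phosphatase Phlpp1, the phosphatase Phlpp2 or both. Members were chosen by gene name and not by a threshold on measured values: every gene called Ccl, Cxcl or Cx3cl1 with its number, plus 25 named cytokines, effectors and NF-kB genes. The choice gave 61 of the 49315 gene rows in the table, under 59 symbols, because Ccl19 and Ccl27 each occupy 2 rows. Of the 61 rows, 38 passed the filter on low counts and were tested together with 16565 genes in all, 17 had some counts but too few to test, and 6 had no count in any library. By their labels, the 12 libraries came from female mice 5 days old, though Xist was low in some (below). There were 3 libraries each of WT, Phlpp1 KO (Phlpp1-/-), Phlpp2 KO (Phlpp2-/-) and Phlpp1/2 KO (Phlpp1/2-/-). The labels give the strain as C57BL6, except for Phlpp2 KO 3 (C57BL7) and Phlpp1/2 KO 1, 2 and 3 (C57BL8, C57BL9 and C57BL10). The cells of every genotype had been freed from cartilage by collagenase, cryopreserved and, after thawing, plated overnight with serum before RNA was taken, so every level below is that of plated cells. The labels do not say whether the 3 libraries of a genotype are separate animals, and the p-values then measure the spread between these libraries, which may be technical. The labels name no promoter or Cre behind the deletions.

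Chemokines are small secreted proteins that draw leukocytes along a gradient, and their family names follow the spacing of their first cysteines. NF-kB is a family of transcription factors held in the cytoplasm by IkB inhibitors. When Toll-like, interleukin-1 or tumour necrosis factor receptors are engaged, adaptors such as Myd88 lead to loss of the inhibitor. The freed factors switch on chemokines, Il6, Lcn2, Nos2 and their own regulators Nfkbia, Nfkbiz and Tnfaip3. In cartilage this response is known from injury and arthritis, where chondrocytes themselves secrete many of these proteins.

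The library totals ran from 21706337 to 33115345 counts. Phlpp1 was at 35.1 to 44.6 CPM (counts scaled to a library size of 1e6) in the 6 libraries that keep it and at 7.71 to 9.46 CPM in the 6 that do not, so reads of the gene remained in the knockouts. Phlpp2 was at 22.4 to 28.1 CPM in WT and Phlpp1 KO, at 16.8 to 19.4 CPM in Phlpp2 KO and at 10.2 to 11.4 CPM in Phlpp1/2 KO. Chondrocyte markers summed to 30174 to 54737 CPM over the 12 libraries, while neutrophil markers summed to at most 1.76 CPM and T and NK cell markers to at most 0.306 CPM. Macrophage markers were detected at 23.5 to 42.9 CPM in sum. Fibroblast and perichondrium markers were higher, at 719 to 1044 CPM in sum, and skeletal muscle markers lay at 5.75 to 70.0 CPM. The libraries therefore held RNA of markers other than those of chondrocytes. Xist, the RNA made from the inactive X chromosome of female cells, stood at 13.9 CPM in Phlpp1 KO 1 and 3.77 CPM in Phlpp1/2 KO 1 against at least 278 CPM elsewhere. Both low values are at odds with the female label, so sex may be mixed within Phlpp1 KO and Phlpp1/2 KO. Values without both libraries are given beside the counts and calls of members that moved by over 1.5 times.

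In WT chondrocytes the module was carried by a few genes. Per kilobase of exon, the neutrophil chemokine Cxcl5 was the highest member at 94.8 CPM per kb, with a range over the 3 WT libraries of 69.2 to 126. Next came Csf1, the macrophage growth factor, at 77.0 CPM per kb, the prostaglandin synthase Ptgs2 at 68.1, the iron-siderophore binder Lcn2 at 67.4 and the neutrophil chemokine Cxcl1 at 67.4. The WT ranges of these 5 genes overlapped, so their order was not resolved beyond the spread. The monocyte chemokine Ccl2 followed at 49.1 CPM per kb (36.1 to 59.3), which overlapped Ptgs2, Lcn2 and Cxcl1 at its top. Then came Cxcl14 at 33.1, the NF-kB inhibitor Nfkbia at 32.2, the monocyte chemokine Ccl7 at 26.7 and the adaptor Myd88 at 23.2. Cxcl14 and Nfkbia overlapped in range, as did Nfkbia and Ccl7, and Ccl7 and Myd88, so that order was not resolved either. By WT mean level without the length correction, 5 members were above 100 CPM, 32 lay between 1 and 100 CPM, and Ccl28 was the 1 tested member below 1 CPM.

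The classical upstream cytokines were near the limit of detection. Tnf had 28 counts over all 12 libraries, with 0 to 5 in any one. Il1b had 11 counts in all, and Il1a had 51, with 2 to 7 per library. The T cell and natural killer cell attractant Cxcl9 had 5 counts, Ccl3 had 75 and Ccl4 had 9. Csf2 had 13 counts. They were below the filter; in the fit without it none of the 17 members with some counts was called in any of the 9 comparisons (edgeR), and 6 values had an unadjusted p under 0.05. At these depths 1 count is 0.0302 to 0.0461 CPM of the unscaled library totals. Ccl1 and Ccl26 had no count in any library, like the 4 rows of Ccl19 and Ccl27. Among the untested genes with at least 20 counts, Ccl11 and Cxcl15 were spread unevenly: Ccl11 had 12 of its 51 counts in Phlpp1/2 KO 3 (23.5%), and Cxcl15 had 6 of 24 in WT 2 and 6 in Phlpp1 KO 1.

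**Figure D1:**
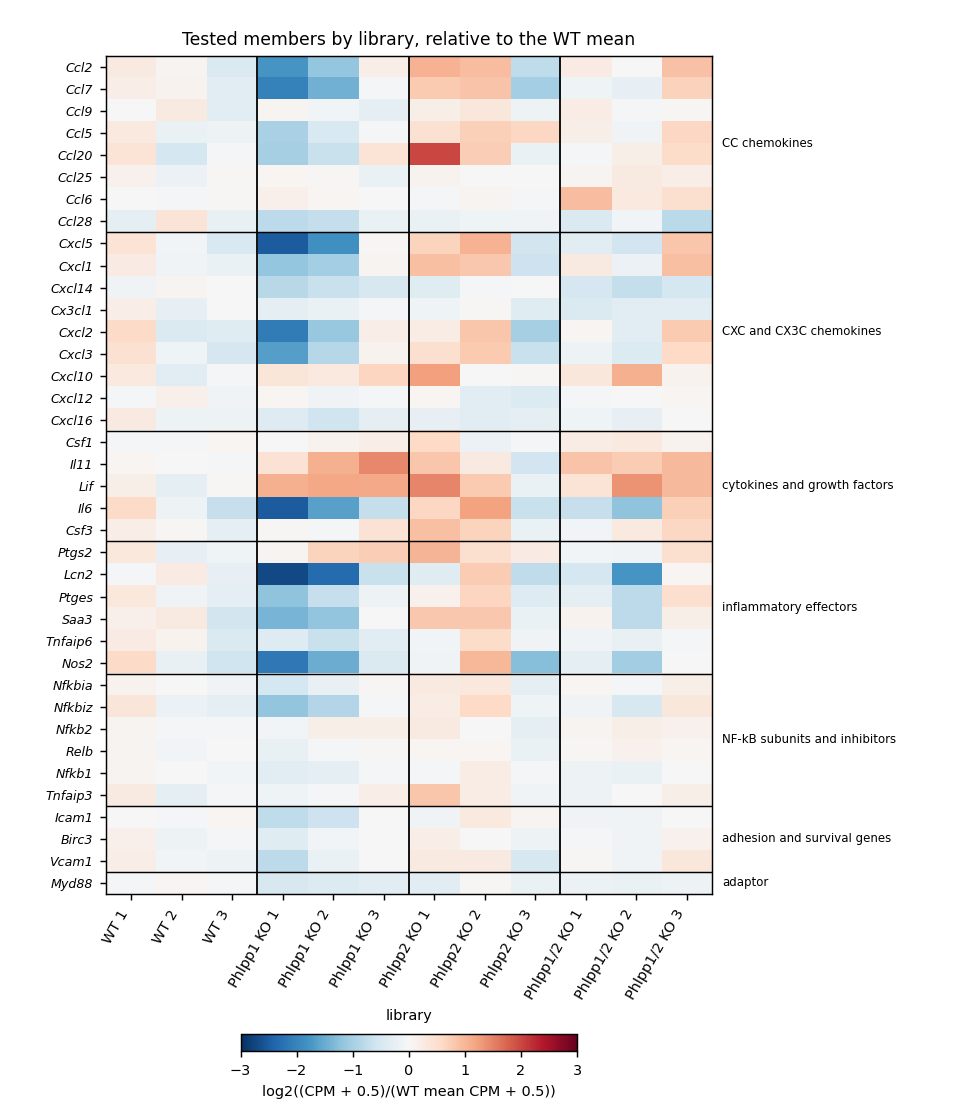
Level of the 38 tested members in each of the 12 libraries, as log2 of (CPM + 0.5) over (WT mean CPM + 0.5), grouped by class and ordered in each class by WT level per kb. The colour scale ends at 3 in either direction. Phlpp1 KO 1 and Phlpp1 KO 2 are blue in many rows of the CC, CXC and effector blocks, Phlpp1 KO 3 is close to WT there, and Il11 and Lif are red in all 3 Phlpp1 KO libraries.

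Against WT, 2 of the 38 tested members fell in Phlpp1 KO and none rose: Cxcl14, a chemokine made by many resting tissues, and Myd88, the adaptor of Toll-like and interleukin-1 receptors. Calls here are those at an adjusted p under 0.05 (edgeR quasi-likelihood test, Benjamini-Hochberg adjustment over all genes tested), a threshold that 0.537% of all tested genes passed. Of the 38, 29 had a log2 fold change below 0, against 52.3% of all tested genes, and the median was −0.38 against −0.01. At an unadjusted p under 0.05, 8 members were lower, against 9.54% of all genes, and 2 were higher. The 3 Phlpp1 KO libraries and the 3 WT libraries did not overlap for 8 members, or 21.1%, against 28.2% of all genes, so non-overlap was not more common here than elsewhere. Without Phlpp1 KO 1 and Phlpp1/2 KO 1 the count below 0 was 29 of 40 tested with a median of −0.20, and 3 were lower at an unadjusted p under 0.05, against 6.06% of all genes. Without WT 1 that last count was also 3 of 40, against 6.64% of all genes.

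In Phlpp2 KO no member passed the adjusted threshold, which 0.121% of all genes did. At an unadjusted p under 0.05, 3 members were higher, 7.89% against 8.48% of all genes, and none was lower. The sign leaned the other way from Phlpp1 KO: 31 of 38 were above 0, against 46.1% of all genes, with a median of 0.19. This lean moved with single libraries: without Phlpp2 KO 2 it was 23 of 40 with a median of 0.04, without WT 3 it was 26 of 41 with 0.07, without WT 1 it was 33 of 40 with 0.34, and without Phlpp2 KO 3 it was 35 of 41 with 0.42. Non-overlap with WT was found for 2 members, against 19.1% of all genes. In Phlpp1/2 KO again no member passed, against 0.235% of all genes, 5 had an unadjusted p under 0.05, against 11.1%, and 23 were above 0, against 49.6%, with a median of 0.08. That direction turned without Phlpp1/2 KO 3 (16 of 40 above 0, median −0.07) and without WT 3 (19 of 41, median −0.03). There 8 members did not overlap WT, 21.1% against 18.9% of all genes. DESeq2 called no member in Phlpp2 KO and 1 in Phlpp1/2 KO, and limma-voom none in either. These 3 comparisons share the WT libraries.

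Comparing the knockouts with each other, no member passed the adjusted threshold in any pair. Phlpp1 KO was below Phlpp2 KO for 33 of 38 members, against 49.8% of all genes, and 14 members were lower at an unadjusted p under 0.05, 36.8% against 5.61% of all genes, while 0.151% of all genes were called. The 14 became 4 of 40 without Phlpp2 KO 2, against 619 of 16833 genes. They became 7 of 41 without Phlpp1 KO 1 or Phlpp1 KO 2, against 834 of 16812 and 670 of 16821 genes. Without Phlpp2 KO 1 they were 8 of 41, against 1470 of 17014 genes. Without Phlpp2 KO 3 they were 22 of 41, against 859 of 17005 genes. Without both low-Xist libraries they were 6 of 40, against 724 of 16728 genes. Phlpp1/2 KO was above Phlpp1 KO for 33 of 38, against 50.6%, with 5 higher at an unadjusted p under 0.05, against 3.44%, and 0.0121% of all genes called. The 5 became 19 of 41 without Phlpp1 KO 3, against 563 of 17005 genes. They became 2 or 3 without Phlpp1 KO 1, Phlpp1 KO 2, Phlpp2 KO 2, Phlpp1/2 KO 1 or Phlpp1/2 KO 3, against 299 to 667 of all genes. Without both low-Xist libraries they were 1 of 40, against 240 of 16728 genes. Phlpp1/2 KO was below Phlpp2 KO for 26 of 38, against 49.9%, with 2 members at an unadjusted p under 0.05, against 8.84%, and 0.0724% called. Its median of −0.17 became 0.01 without Phlpp2 KO 2, with 19 of 40 below 0, −0.06 without Phlpp2 KO 1, with 24 of 41, and −0.35 without Phlpp2 KO 3, with 35 of 41. DESeq2 called 2 members between Phlpp1 KO and Phlpp2 KO and 0 in the other 2 pairs, and limma-voom 0 in all 3.

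The 6 libraries without Phlpp1 were also set against the 6 with it, and the 6 without Phlpp2 against the 6 with it, in the same model. For Phlpp1, 1 member fell (Cxcl14), against 0.592% of all genes called, 28 of 38 were below 0, against 49.1%, and 11 were lower at an unadjusted p under 0.05, 28.9% against 8.36%. The 11 became 2 of 41 without Phlpp1 KO 2 (against 6.09% of all genes) and 3 of 40 without Phlpp2 KO 2 (against 1025 of 16833 genes). They became 4 without WT 1 or Phlpp1 KO 1 (1153 of 17021 and 1292 of 16812 genes). Without Phlpp1/2 KO 1 or 2 they were 6 of 40 (1263 of 16828 and 1174 of 16835 genes). Without Phlpp2 KO 1 they were 7 of 41 (1797 of 17014 genes) and without Phlpp1 KO 3 they were 19 of 41 (1302 of 17005 genes). Without both low-Xist libraries they were 3 of 40 (1072 of 16728 genes). For Phlpp2, no member was called, against 0.0906%. Its direction was the most one-sided of the 9 comparisons: 35 of 38 were above 0, against 50.0% of all genes, with a median of 0.26 and 4 higher at an unadjusted p under 0.05, 10.5% against 3.45%. Many members moved together from library to library, as given below. The counts of members here and above are therefore not counts of independent events, and their excess over all genes was not tested. The 35 above 0 varied little with 1 library left out (35 to 39 of 40 or 41), but the 4 moved more. They became 16 of 41 without Phlpp1 KO 3, against 716 of 17005 genes, and 12 of 41 without Phlpp2 KO 3, against 550 of 17005. They became 1 without WT 2, WT 3 or Phlpp1 KO 2, against 383 to 795 of all genes. They became 2 without Phlpp1 KO 1, Phlpp2 KO 1, Phlpp2 KO 2, Phlpp1/2 KO 1 or Phlpp1/2 KO 3, against 458 to 744 genes. Without both low-Xist libraries they were 1 of 40, against 507 of 16728 genes. In the test of whether the effect of losing both differs from the sum of the single losses, no member was called, against 0.0483%, 4 had an unadjusted p under 0.05, against 14.5%, and 29 were above 0, against 56.1%. The interaction median of 0.20 became 0.09 without WT 1, with 24 of 40 above 0. Without WT 3 it became 0.31, with 31 of 41. Without both low-Xist libraries it was 0.12, with 26 of 40. DESeq2 called 1 member for Phlpp2 and 1 in the interaction, and limma-voom 0 in each.

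By class, the members below 0 in Phlpp1 KO against WT were 7 of 8 tested CC chemokines (median −0.43), 8 of 9 CXC and CX3C chemokines (−0.60), 5 of 6 inflammatory effectors (−0.69), 4 of 6 NF-kB subunits and inhibitors (−0.15) and all 3 adhesion and survival genes (−0.30). The cytokines went the other way, with 4 of 5 above 0 (0.21). In Phlpp2 KO the members above 0 were 7 of 8 CC chemokines, 5 of 9 CXC and CX3C chemokines, all 6 effectors and all 5 cytokines. In Phlpp1/2 KO they were 7 of 8 CC chemokines, 6 of 9 CXC and CX3C chemokines, 1 of 6 effectors and 4 of 5 cytokines. Apart from Cxcl14 in Phlpp1 KO, none of the members in these counts passed the test. Myd88, the other called member, is the only adaptor and is not in these counts.

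**Figure D2:**
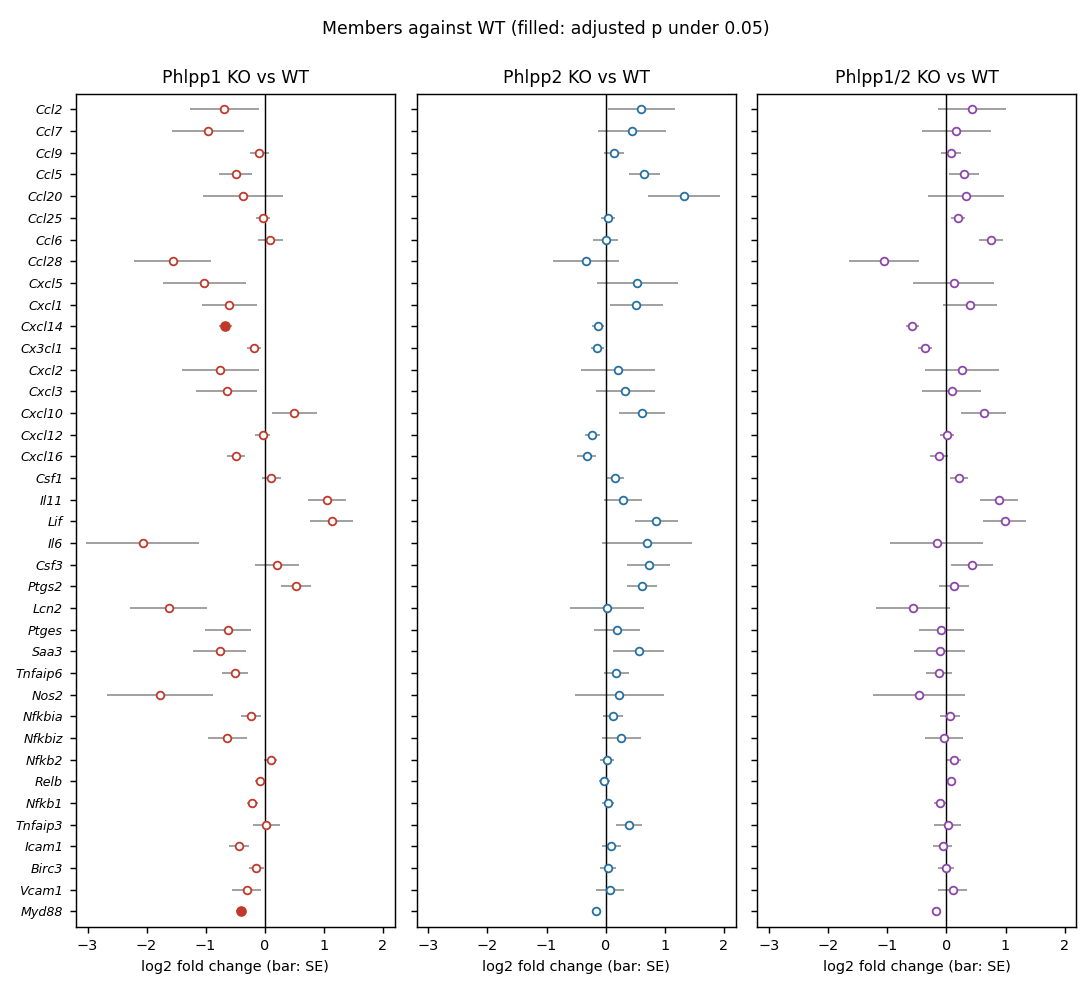
Log2 fold change of the 38 tested members in each knockout against WT, with bars of 1 SE from the edgeR model; filled points passed an adjusted p of 0.05. Only Cxcl14 and Myd88 in Phlpp1 KO are filled, and the widest bars belong to Il6 and Nos2.

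Cxcl14 gave the clearest genotype difference. It lies on chr13:56288643-56296551 (mm10, minus strand). WT libraries held 56.4, 63.8 and 61.1 CPM, Phlpp1 KO 33.7, 37.6 and 43.1 CPM, Phlpp2 KO 46.6, 58.6 and 60.6 CPM, and Phlpp1/2 KO 42.7, 36.7 and 41.9 CPM. All 6 libraries without Phlpp1 lay below all 6 with it, with 43.1 CPM the highest of the former and 46.6 CPM the lowest of the latter, a separation in this direction found in 0.634% of all genes. The mean was 60.4 ± 3.76 CPM in WT and 38.1 ± 4.72 CPM in Phlpp1 KO (SD, 3 libraries each). Cxcl14 fell by 0.67 on the log2 scale in Phlpp1 KO (SE 0.11, 1.59-fold lower, edgeR adjusted p = 0.0200) and by 0.56 over the 6 against 6 (SE 0.08, adjusted p = 0.00534). Against WT, Phlpp1/2 KO stood at −0.58 (SE 0.11, adjusted p = 0.0551) and Phlpp2 KO at −0.13 (SE 0.11, adjusted p = 0.647). Phlpp1 KO differed from Phlpp2 KO by −0.54 (SE 0.11, adjusted p = 0.0755), and Phlpp1/2 KO from Phlpp1 KO by 0.09 (SE 0.11, adjusted p = 0.841). Between Phlpp1/2 KO and Phlpp2 KO, the loss of Phlpp1 where Phlpp2 is also lost, the difference was −0.45 (edgeR adjusted p = 0.352). None of the 19 alternative settings called it, so Phlpp1 loss on that background alone did not pass. The call over 6 against 6 was kept without each of the 12 libraries (adjusted p 0.000668 to 0.0363). The call in Phlpp1 KO against WT was lost without WT 2 (adjusted p = 0.109), WT 3 (0.0856), Phlpp1 KO 1 (0.0806) or Phlpp1 KO 2 (0.134), with the log2 fold change between −0.58 and −0.66. Without both low-Xist libraries it was −0.56 (adjusted p = 0.132), and the 6 against 6 call was kept (adjusted p = 0.0374). In bulk RNA, fewer cells of a type and less RNA per cell cannot be told apart, here and for the genes below.

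The CXC chemokines that attract neutrophils, Cxcl5, Cxcl1, Cxcl2 and Cxcl3, were abundant and varied within each genotype. Cxcl5 stood at 235, 166 and 129 CPM in WT, 30.8, 48.8 and 183 in Phlpp1 KO, 283, 367 and 120.3 in Phlpp2 KO, and 142, 118 and 315 in Phlpp1/2 KO. Phlpp1 KO 1 and 2 were the lowest of the 12, while Phlpp1 KO 3 lay inside the WT range, so the groups overlapped. The log2 fold change in Phlpp1 KO was −1.02 with an SE of 0.70 (adjusted p = 0.453). Cxcl1 had 150.4, 118 and 110.2 CPM in WT, 56.3, 61.8 and 133 in Phlpp1 KO, 238, 223 and 82.1 in Phlpp2 KO, and 153, 111 and 235 in Phlpp1/2 KO. Its 6 against 6 difference for Phlpp2 was 0.76 (SE 0.32, adjusted p = 0.702). Cxcl2 and Cxcl3 were at −0.75 (SE 0.65) and −0.65 (SE 0.52) in Phlpp1 KO, neither called.

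Promoters are shown because several members hold letters like those NF-kB is known to bind. Each line is the 150 bases before the annotated start, read 5′ to 3′ on the gene's strand (RefSeq, GRCm38.p6), in the windows chr5:90891095-90891244 (Cxcl1, plus), chr5:90903749-90903898 (Cxcl2, plus), chr5:90785951-90786100 (Cxcl3, plus), chr5:30012964-30013113 (Il6, plus), chr12:55492648-55492797 (Nfkbia, minus) and chr13:56296552-56296701 (Cxcl14, minus). Capitals mark each match, on either strand, to GGG, any 2 bases and TTTCC. Cxcl14 is shown as a called member without a match, which most tested members with a window also lacked.
Cxcl1: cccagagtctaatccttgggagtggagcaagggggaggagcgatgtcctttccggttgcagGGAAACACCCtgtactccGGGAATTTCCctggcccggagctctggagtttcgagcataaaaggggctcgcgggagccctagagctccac
Cxcl2: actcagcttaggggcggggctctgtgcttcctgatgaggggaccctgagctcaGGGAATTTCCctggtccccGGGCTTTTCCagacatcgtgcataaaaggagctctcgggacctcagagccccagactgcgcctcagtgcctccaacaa
Cxcl3: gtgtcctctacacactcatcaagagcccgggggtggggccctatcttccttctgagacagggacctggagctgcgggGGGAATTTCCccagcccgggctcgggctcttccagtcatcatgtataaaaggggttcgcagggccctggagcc
Il6: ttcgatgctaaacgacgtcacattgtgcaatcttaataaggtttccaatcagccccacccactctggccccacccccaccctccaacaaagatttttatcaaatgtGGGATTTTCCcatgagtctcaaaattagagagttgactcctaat
Nfkbia: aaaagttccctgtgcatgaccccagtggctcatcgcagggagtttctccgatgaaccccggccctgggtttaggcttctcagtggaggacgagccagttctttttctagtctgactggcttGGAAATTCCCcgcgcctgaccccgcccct
Cxcl14: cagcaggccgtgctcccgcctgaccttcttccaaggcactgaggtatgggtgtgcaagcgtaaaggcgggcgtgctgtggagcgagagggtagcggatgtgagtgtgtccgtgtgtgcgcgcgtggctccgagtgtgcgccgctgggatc

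The first capital lies 89 and 71 bases before the start in Cxcl1, 97 and 78 in Cxcl2, 73 in Cxcl3, 44 in Il6 and 29 in Nfkbia. Promoter windows of 300 bases (250 before to 50 after the start) were found for 41 members, 27 of them tested. Of those 27 genes, 10 (37.0%) held the pattern in a window, against 2.06% of the 11160 tested genes with one: Cxcl1, Cxcl2, Cxcl3, Ccl20, Ccl9, Il6, Csf1, Nfkbia, Nfkb2 and Tnfaip3. With a stricter pattern, GGGA, any base and TTTCC, 7 (25.9%) matched against 0.502%. These are stricter forms of the pattern first set, GGG, any 5 bases and CC, which gave 77.8% against 71.7%. A form between them, GGG, any 4 bases and TCC gave 51.9% against 27.7%. The patterns are nested, so these counts are not independent. The windows of Cxcl14 and Myd88, the called members, held none of the 4. Lcn2 and Lif held the 2 looser patterns but not the 2 strict ones. A match is a description of these letters and not evidence of binding, and the members were chosen as NF-kB genes. Cxcl5, Ccl2, Ccl5, Ccl7, Nfkbiz and Nos2 had no entry in the table.

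**Figure D3:**
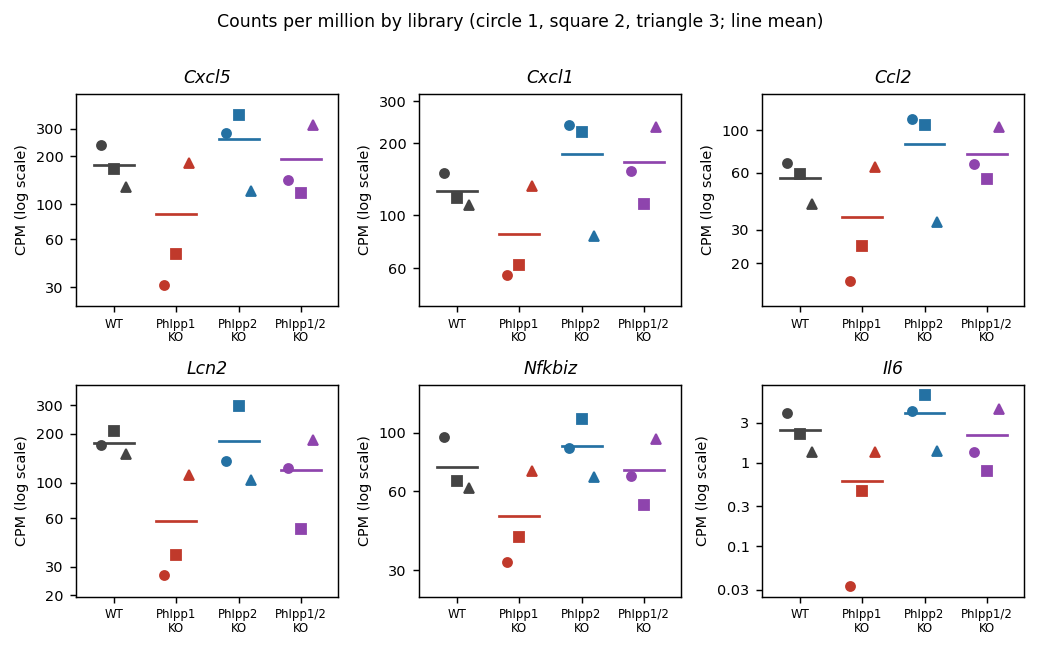
CPM on a log axis of 6 inducible members in the 3 libraries of each genotype, with the mean as a line. In each panel Phlpp1 KO 1 is the lowest of all 12 libraries and Phlpp1 KO 3 lies well above Phlpp1 KO 1 and 2; Il6 in Phlpp1 KO 1 is a single count.

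Among other CXC members, Cxcl10, an interferon-inducible attractant of T cells, did not follow the neutrophil group: it ranged from 2.77 to 4.48 CPM in WT and from 4.50 to 5.80 CPM in Phlpp1 KO (0.50, SE 0.39, adjusted p = 0.502), with its highest level, 9.04 CPM, in Phlpp2 KO 1. Cxcl12, the niche chemokine read by Cxcr4, was steady at 9.39 to 14.1 CPM over all libraries. Cxcl16 was at 5.16, 3.78 and 3.75 CPM in WT and at 3.10, 2.63 and 3.33 CPM in Phlpp1 KO, without overlap (−0.48, SE 0.16, adjusted p = 0.125). It was at 3.51, 3.21 and 3.41 CPM in Phlpp2 KO, again below every WT library (−0.32, SE 0.16, adjusted p = 0.394), and at 3.83, 3.52 and 4.19 CPM in Phlpp1/2 KO, which overlapped WT. Its interaction term was 0.67 (SE 0.22, adjusted p = 0.176). Cx3cl1, the membrane-anchored fractalkine, was at 48.4, 35.5 and 42.1 CPM in WT and at 31.2, 33.01 and 33.1 CPM in Phlpp1/2 KO, with no overlap (−0.37, SE 0.12, adjusted p = 0.295).

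Among the CC chemokines, Ccl2 and Ccl7 had the highest WT levels and a wide spread. Ccl2, a monocyte attractant, was at 67.4, 59.1 and 41.1 CPM in WT, 16.1, 24.5 and 64.4 in Phlpp1 KO, 115, 106 and 33.01 in Phlpp2 KO, and 66.7, 55.3 and 104 in Phlpp1/2 KO. Its neighbour Ccl7 ran alongside it, with 4.85, 7.56 and 20.8 CPM in Phlpp1 KO and 37.2, 39.3 and 10.3 CPM in Phlpp2 KO against 24.4, 23.0 and 16.6 CPM in WT. For both genes Phlpp1 KO 1 and 2 were lowest, and Phlpp2 KO 3 was the third lowest. Neither was called in any comparison. Ccl9 and Ccl25 stayed between 12.1 and 19.7 CPM and between 6.03 and 8.54 CPM.

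Ccl5, an attractant of T cells and monocytes, had the smallest unadjusted p of the members in both tests on Phlpp2, though not the largest fold change. It had 5.57, 3.86 and 4.01 CPM in WT, 2.02, 3.15 and 4.39 in Phlpp1 KO, 6.29, 7.68 and 7.13 in Phlpp2 KO, and 5.09, 4.13 and 7.21 in Phlpp1/2 KO. All 3 Phlpp2 KO libraries were above all 3 WT libraries, while Phlpp1/2 KO overlapped WT. The log2 fold change was 0.66 in Phlpp2 KO (SE 0.26, edgeR adjusted p = 0.296) and 0.73 over the 6 libraries without Phlpp2 against the 6 with it (SE 0.19, adjusted p = 0.379). Phlpp1 KO lay below Phlpp2 KO by 1.15 on the log2 scale, with no overlap (−1.15, SE 0.26, adjusted p = 0.138). None of these passed in the main test. DESeq2 called the last (adjusted p = 0.00410) and the 6 against 6 difference (adjusted p = 0.0398). It called 176 and 59 of 16565 genes there, against 25 and 15 in the main test.

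Ccl6, a chemokine of myeloid cells in mice, was 1.38 to 1.65 CPM in all 9 libraries of WT, Phlpp1 KO and Phlpp2 KO and 3.22, 1.90 and 2.22 CPM in Phlpp1/2 KO. Every Phlpp1/2 KO library was above every other library, a pattern whose share over all genes was not counted. The difference from WT was 0.75 (SE 0.20, adjusted p = 0.209). From Phlpp1 KO it was 0.65 (edgeR adjusted p = 0.626) and from Phlpp2 KO 0.75 (edgeR adjusted p = 0.401). The 12 macrophage markers, none of them at 0 in all libraries, summed to 31.3 to 42.9 CPM in Phlpp1/2 KO and to 24.8 to 32.4 CPM in WT; 9 of the 10 tested were higher in Phlpp1/2 KO, 5 at an unadjusted p under 0.05 and none after adjustment, against 49.6%, 4.99% and 0.235% of all genes. Their part in the Ccl6 values was not tested. Ccl20, which attracts dendritic and Th17 cells through Ccr6, had 276 of its 985 counts (28.0%) in Phlpp2 KO 1.

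The gp130 cytokines Il11 and Lif had the opposite sign from most of the module in Phlpp1 KO. Il11, which acts on bone and cartilage cells through its own receptor and gp130, was at 15.8, 14.9 and 14.3 CPM in WT and at 20.3, 32.03 and 41.3 CPM in Phlpp1 KO. Phlpp1/2 KO held 27.4, 25.6 and 29.9 CPM, also above every WT library, while Phlpp2 KO spread from 9.85 to 27.1 CPM. The log2 fold change was 1.06 in Phlpp1 KO (SE 0.32, adjusted p = 0.121), 0.88 in Phlpp1/2 KO (SE 0.32, adjusted p = 0.345) and 0.82 over 6 against 6 for Phlpp1 (SE 0.22, adjusted p = 0.149). Lif had 31.4, 23.0 and 28.4 CPM in WT, 58.0, 62.1 and 61.5 in Phlpp1 KO, 77.0, 48.2 and 24.04 in Phlpp2 KO, and 37.0, 71.4 and 54.9 in Phlpp1/2 KO. Phlpp1 KO and Phlpp1/2 KO did not overlap WT (1.14, SE 0.36, adjusted p = 0.133 and 0.98, SE 0.36, adjusted p = 0.355), whereas Phlpp2 KO did (0.85, SE 0.36, adjusted p = 0.343). Neither cytokine passed in the main test. DESeq2 called both in Phlpp1 KO, Il11 at an adjusted p of 0.0465, and edgeR on only the WT and Phlpp1 KO libraries called Lif (adjusted p = 0.000855). These settings called 990 of 16565 and 1163 of 15761 genes, against 89 in the main test. On only the WT and Phlpp1/2 KO libraries, edgeR called Il11 (adjusted p = 0.00315), with 57 of 15953 genes called.

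Il6 shares the gp130 receptor chain with them but had the opposite sign in Phlpp1 KO. Its levels were 3.94, 2.198 and 1.34 CPM in WT, 0.0337, 0.46 and 1.33 in Phlpp1 KO, 4.12, 6.39 and 1.38 in Phlpp2 KO, and 1.353, 0.795 and 4.37 in Phlpp1/2 KO. The lowest value is 1 count, and the Phlpp1 KO libraries lay below WT only by the narrow gap between 1.33 and 1.34 CPM. The log2 fold change was −2.07 with an SE of 0.95 (adjusted p = 0.254). Csf1 was the most abundant cytokine, at 359.5 to 611 CPM over the 12 libraries. Csf3, the granulocyte factor, was at 0.841 to 2.53 CPM with no call.

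**Figure D4:**
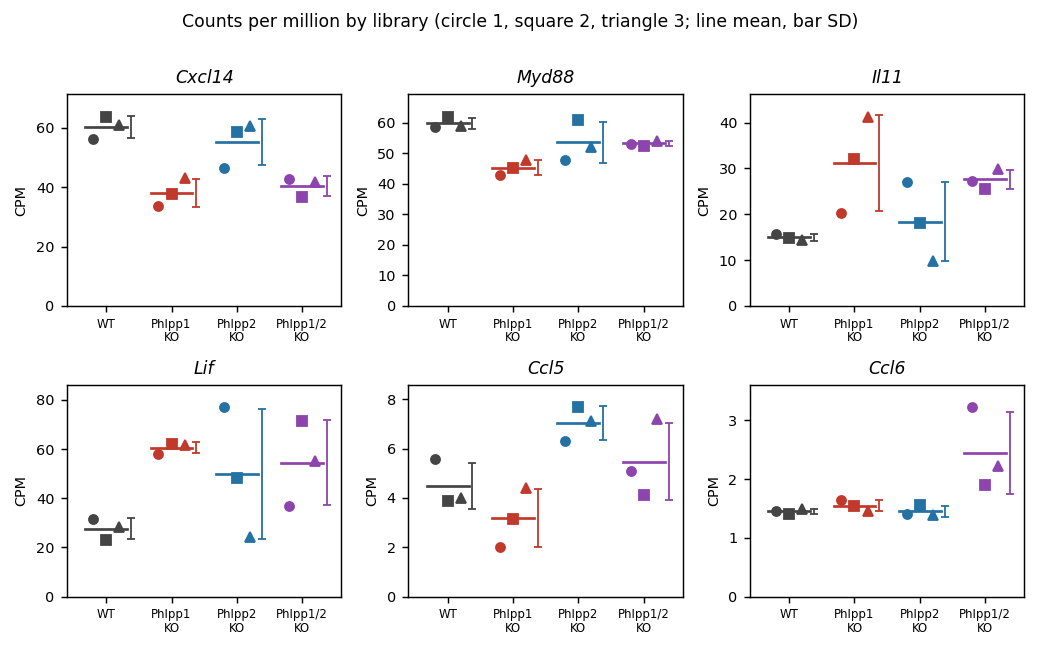
CPM of 6 members in the 3 libraries of each genotype on axes that start at 0, with the mean as a line and the SD as a bar. Cxcl14 separates all libraries without Phlpp1 from those with it, Myd88 is lowest in Phlpp1 KO, and Ccl6 is higher in the 3 Phlpp1/2 KO libraries than in the other 9.

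Of the effectors, Lcn2 was abundant, lower in Phlpp1 KO and widely spread. It was at 171, 209.7 and 149.9 CPM in WT, 26.6, 35.3 and 111 in Phlpp1 KO, 136, 299 and 104 in Phlpp2 KO, and 122, 51.5 and 184 in Phlpp1/2 KO. The 3 Phlpp1 KO libraries were below the 3 WT libraries, yet Phlpp1/2 KO 2 was lower than Phlpp1 KO 3 and Phlpp2 KO 3 lower too. The difference in Phlpp1 KO was −1.63 (SE 0.65, 3.09-fold lower in the fit, adjusted p = 0.206). Nos2, the inducible nitric oxide synthase, had 2 counts in Phlpp1 KO 1 and 135 of its 532 in Phlpp2 KO 2, and was at −1.77 in Phlpp1 KO (SE 0.90, adjusted p = 0.298). The acute-phase gene Saa3 was at 6.90, 8.02 and 18.6 CPM in Phlpp1 KO against 21.1, 22.8 and 12.6 CPM in WT (−0.76, SE 0.44, adjusted p = 0.369).

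The prostaglandin enzymes Ptgs2 and Ptges were both above 0 in Phlpp2 KO and had opposite signs in Phlpp1 KO, with no call. Ptgs2, the inducible cyclooxygenase, was at 386, 263 and 287 CPM in WT, 329, 498 and 522 in Phlpp1 KO, 635, 436 and 367 in Phlpp2 KO, and 296, 288 and 437 in Phlpp1/2 KO, so each knockout overlapped WT. It was at 0.53 in Phlpp1 KO (SE 0.25, adjusted p = 0.274), 0.62 in Phlpp2 KO (SE 0.26, adjusted p = 0.323) and 0.13 in Phlpp1/2 KO, with an interaction of −1.02 (SE 0.36, adjusted p = 0.212). Ptges, the prostaglandin E synthase downstream of it, was at −0.62 in Phlpp1 KO (SE 0.39, adjusted p = 0.404). Tnfaip6, a hyaluronan-binding protein secreted in inflamed joints, was at 4.37, 3.48 and 4.58 CPM in Phlpp1 KO and 5.499, 8.87 and 5.44 CPM in Phlpp2 KO, without overlap (−0.68, SE 0.22, adjusted p = 0.294).

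Myd88, the second called member, lies on chr9:119335934-119341411 (mm10, minus strand). It was at 58.7, 61.9 and 58.8 CPM in WT, 42.8, 45.2 and 47.6 in Phlpp1 KO, 47.7, 60.9 and 52.1 in Phlpp2 KO, and 53.1, 52.4 and 54.0 in Phlpp1/2 KO. Each of the 3 Phlpp1 KO libraries was below all of the other 9, the nearest being Phlpp2 KO 1. The share of all genes with this pattern was not counted. Its mean fell from 59.8 ± 1.81 CPM in WT to 45.2 ± 2.39 CPM in Phlpp1 KO (SD, 3 libraries each). The log2 fold change was −0.40 (SE 0.08, 1.32-fold lower, edgeR adjusted p = 0.0421), against −0.17 in Phlpp1/2 KO (SE 0.08, adjusted p = 0.451), and the interaction term was 0.39 (SE 0.11, adjusted p = 0.152). The call rested on a narrow margin: leaving out 1 library kept it in 3 of 12 cases, with the adjusted p between 0.0124 and 0.168 and the log2 fold change between −0.37 and −0.43. Without any 1 of WT 1, 2 and 3 and Phlpp1 KO 1, 2 and 3 it was lost, and also without Phlpp2 KO 3, Phlpp1/2 KO 1 or Phlpp1/2 KO 2. Without both low-Xist libraries it stood at −0.35 (adjusted p = 0.155), and limma-voom gave an adjusted p of 0.0510. Myd88 shares 290 bases, 11.3% of its exon length, with exons of Acaa1a on the opposite strand, a gene of like total count (18011 against 18132) that stood at −0.19 in Phlpp1 KO (SE 0.07, adjusted p = 0.145). The counting strand is not given in the sources used here, so reads from the shared bases cannot be assigned. The same holds for 18.3% of the exon length of Cxcl16 (Zmynd15), 11.72% of Icam1 (Gm47079), 6.52% of Nfkb2 (Psd) and 5.91% of Cxcl10 (Art3).

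The NF-kB subunits among the members differed little. The subunits Rela and Rel are not members and are counted in the signalling core list below, without values of their own. Nfkb1, Nfkb2 and Relb had log2 fold changes between −0.21 and 0.13 in the 3 knockouts against WT, with SEs of 0.09 to 0.12 and no call. The regulators that NF-kB induces, counted above with the inhibitors, spread more. Nfkbiz, which binds NF-kB subunits in the nucleus and is required for Il6 and Lcn2 induction in mouse cells, had 95.9, 65.7 and 61.5 CPM in WT, 32.2, 40.2 and 71.8 in Phlpp1 KO, 87.5, 113 and 67.8 in Phlpp2 KO, and 68.7, 53.1 and 94.7 in Phlpp1/2 KO (−0.63, SE 0.33, adjusted p = 0.319 in Phlpp1 KO). Nfkbia was at 35.5, 44.4 and 52.7 CPM in Phlpp1 KO against 55.4, 52.1 and 48.0 CPM in WT, with 0.13 and 0.06 in Phlpp2 KO and Phlpp1/2 KO. Tnfaip3, a ubiquitin-editing brake on the pathway, had its highest level, 13.2 CPM, in Phlpp2 KO 1 and lay at 5.87 to 8.83 CPM in the other 11.

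Among adhesion and survival genes, Icam1, the leukocyte integrin ligand, was at 43.0, 46.8 and 72.7 CPM in Phlpp1 KO against 71.7, 71.5 and 75.5 CPM in WT (−0.43, SE 0.17, adjusted p = 0.180). It was called only when Phlpp1 KO 3 was left out. Vcam1 was at −0.30 (SE 0.24) and the apoptosis inhibitor Birc3 at −0.14 (SE 0.13), neither called; Birc3 shares a stretch of 369 bases at 99.2% identity with the gene Gm7019, which had 11 counts.

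Libraries of 1 genotype stood far apart for many members. Phlpp1 KO 1 held the lowest value of the 12 libraries for 22 of the 38 members, against 8.95% of all tested genes. Phlpp1 KO 1 and 2 were the lowest 2 libraries for 17 members, against 2.74% of all genes, a pattern looked for after the values were seen. The 17 were Ccl2, Ccl5, Ccl7, Ccl20, Cxcl1, Cxcl2, Cxcl3, Cxcl5, Cxcl16, Icam1, Il6, Lcn2, Myd88, Nfkb1, Nfkbiz, Nos2 and Saa3. At the other end, Phlpp2 KO 2 was highest for 16 members, against 7.59% of all genes, and Phlpp2 KO 1 for 11, against 10.1%. The CXC and CX3C chemokines summed to 187 and 224 CPM in Phlpp1 KO 1 and 2 but 464 CPM in Phlpp1 KO 3, inside the WT range of 390.0 to 568 CPM, and to 683, 779 and 335 CPM in Phlpp2 KO. Phlpp1/2 KO 3 held 710.0 CPM against 427 and 353 CPM in Phlpp1/2 KO 1 and 2. Leaving out Phlpp1 KO 3 raised the members lower in Phlpp1 KO at an unadjusted p under 0.05 to 20 of 41 tested, against 7.75% of all genes. Without Phlpp1 KO 1 they numbered 3 of 41, against 8.07%, and without Phlpp1 KO 2 they numbered 2 of 41, against 6.11%. Of the sums over other cell types, endothelial markers were lowest in Phlpp1 KO 1 (2.89 CPM) and highest in Phlpp1 KO 3 (12.4 CPM). Macrophage markers were at 29.2, 24.4 and 26.5 CPM in Phlpp1 KO 1, 2 and 3. Chondrocyte markers, in the same order, summed to 54084, 40850 and 42916 CPM. They summed to 36472, 44829 and 54737 CPM in WT and to 38070, 38517 and 47191 CPM in Phlpp2 KO. In Phlpp1/2 KO they summed to 39957, 45508 and 30174 CPM. In each genotype the library with the highest chondrocyte sum had the lowest CXC and CX3C sum, a pattern seen after the fact. The part of these cell types in the chemokine levels was not tested.

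The wider pathway was read from lists named by function. These lists, and the interferon list below, were read in the main fit only. Whether their calls hold under other settings was not tested. Without both low-Xist libraries, 18 of 16728 genes were called in Phlpp1 KO against WT, against 89 of 16565 in the main test. Beside the counts below stand the shares of all genes in Phlpp1 KO against WT, where 52.3% were below 0, 9.54% were lower and 10.8% higher at an unadjusted p under 0.05, and 0.537% were called. Of 28 tested genes of the NF-kB signalling core (kinases, receptor adaptors and regulators), 15 were lower and 13 higher in Phlpp1 KO, 4 each way at an unadjusted p under 0.05, and none was called; the lowest unadjusted p belonged to the kinase Chuk, at 47.3 CPM in WT and 63.4 CPM in Phlpp1 KO (0.42, SE 0.10, adjusted p = 0.0855). Of 12 tested Toll-like receptors and sensors, 7 were lower, 2 of them at an unadjusted p under 0.05, and none was called, with the peptidoglycan sensor Nod1 at 9.35 CPM in WT and 5.11 CPM in Phlpp1 KO (−0.87, SE 0.22, adjusted p = 0.0919). Of 5 tested chemokine receptors, 4 were lower and none was called. Of 18 tested cytokine receptors and antagonists, 14 were lower and 1 fell, Tnfrsf1a, the main tumour necrosis factor receptor, from 176.9 to 141 CPM (−0.33, SE 0.06, adjusted p = 0.0317). Lifr, the receptor chain for Lif, was at 23.8 CPM in WT and 16.3 CPM in Phlpp1 KO (−0.54, SE 0.15, adjusted p = 0.0967), the other sign from Lif itself.

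Interferon-stimulated genes, read as a neighbouring programme, were below 0 in Phlpp1 KO for 16 of 18 tested, against 52.3% of all genes, 14 of them at an unadjusted p under 0.05, against 9.54%, and 2 fell, against 0.537% called. The 2 were Irf9, a subunit of the interferon-activated factor ISGF3, from 17.6 to 11.3 CPM (−0.63, SE 0.11, adjusted p = 0.0271), and Xaf1, from 1.73 to 0.69 CPM (−1.32, SE 0.25, adjusted p = 0.0323). The list summed to 90.3 to 98.5 CPM in WT and 72.3 to 80.9 CPM in Phlpp1 KO, with no overlap, and here Phlpp1 KO 3 was below WT too. In Phlpp2 KO 14 of 18 were below 0, against 53.9% of all genes, 3 of them at an unadjusted p under 0.05, against 5.29%. In Phlpp1/2 KO 16 of 18 were below 0, against 50.4%, 7 of them at an unadjusted p under 0.05, against 6.09%. Neither comparison had a call in the list (edgeR). The calls of Irf9 and Xaf1 were not examined without the low-Xist libraries or under the other settings.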

How the data were processed

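RNA of 12 libraries was sequenced. Per the submitters' processing notes, the authors used bcl2fastq 2.17, STAR 2.5.2b and featureCounts of Subread 1.5.2 with mm10; no source used here gives the annotation release or strand setting. The deposited values are raw read counts per gene. Rows of 174 IDs without a symbol, 0.00419% of counts, were kept. From the counts, genes passing filterByExpr were fitted in 1 model of 4 genotypes (TMM scaling, quasi-likelihood F test, edgeR 4.0.16, R 4.3.3; 8 residual degrees of freedom), and Benjamini-Hochberg adjustment ran over all 16565 genes tested. CPM uses TMM-scaled totals; levels between genes are per kb of merged exon (GENCODE, GRCm38). The step was tested on simulated data. Alternatives were DESeq2 1.42.0, limma-voom 3.58.1, no filter, library totals only, only the groups compared, a replicate block, each library left out, and both low-Xist libraries left out. Promoter windows came from RefSeq, and similar transcripts from BLAST. Genes named are the 4 markers Ccl5, Il6, Lcn2 and Cxcl14, every called member, in each comparison the 3 smallest p at 1 CPM or more, the 10 highest WT levels per kb and the 2 highest in each class, up to 4 non-overlapping members per knockout and the 5 most uneven members; Cxcl2, Cxcl3, Cxcl10, Cxcl12, Csf3, Saa3, Ptges, Vcam1, Tnfaip3, Ccl9, Ccl25 the NF-kB subunits and the untested genes given by count were added after their values were seen. Members and lists were chosen with earlier results of these data known. Same-numbered libraries correlated between −0.156 and 0.302 in their deviations, over 0.1 in 4 of 18 pairs, so the numbers were not taken as pairs.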

Additional observations from a re-analysis of the deposited data

How the results depend on the processing

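Over the 33 fold changes of named members, none of the 618 values under alternative settings changed sign. Most were chosen for a small p or for non-overlap in the same comparison, so a change of sign was unlikely from the start. The median over all tested members in Phlpp1/2 KO against WT did turn, as given above. Of the 618 values, 583 stayed on their side of the adjusted threshold, 16 lost the call and 19 gained one. The number of members called moved as follows. In Phlpp1 KO against WT it was 2, and 4 by DESeq2, 3 with only the groups compared, 1 by limma-voom and 0 without both low-Xist libraries; leaving out 1 library gave 0 to 2. In Phlpp1/2 KO against WT it was 0, and 1 with no filter, 1 by DESeq2, 2 with only the groups compared and 1 with the replicate block, where Cxcl14 reached an adjusted p of 0.0495; leaving out 1 library gave 0 to 1. In Phlpp1 KO against Phlpp2 KO it was 0, and 1 with no filter and 2 by DESeq2; leaving out 1 library gave 0 to 1. Over 6 against 6 for Phlpp1 it was 1, and 2 with no filter and 3 by DESeq2; leaving out 1 library gave 1 to 4, the 4 without Phlpp2 KO 1. For Phlpp2 loss and for the interaction it was 0, and 1 each by DESeq2; those results and both comparisons of Phlpp1/2 KO with a single knockout stayed at 0 to 0 with 1 library left out. DESeq2 also called more of all genes than edgeR, 990 against 89 in Phlpp1 KO, where edgeR on only the groups compared called 1163. The cause of these differences was not tested. The replicate block changed no other count of members called. With 3 libraries a genotype, a missed threshold does not show that a member did not differ.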
